A study of Homo sapiens with 6 samples.

Results

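The genes described here are 10 genes of retinoic acid sensing and turnover, found by symbol in the table of gene counts. They are the retinoic acid receptors RARA, RARB and RARG, their partner RXRA, the cytosolic binding proteins CRABP1 and CRABP2, the membrane transporter STRA6, and the enzymes DHRS3, CYP26A1 and CYP26B1. All 10 were present among 25370 rows, and 8 passed the filter on low counts in the comparison of LMO1 with vector. RNA was sequenced from human neuroblastoma lines in a study of LMO1, a LIM-only transcriptional co-regulator, and MYCN, an oncogenic transcription factor. The groups were BE2C cells made to express LMO1 (2 libraries), BE2C cells that carry a vector control (2 libraries), the line Kelly (1 library) and parental BE2C cells (1 library). BE2C is a clonal subline, both lines are known for MYCN amplification, and the labels name neither the vector nor a selected clone. Nothing in them tells whether the libraries of a group are separate cultures. The p-values therefore rest on how far such libraries lie apart, and that may be technical.

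Retinoic acid is made from vitamin A and binds RAR proteins, which sit on DNA as pairs with RXR proteins. Without ligand the pair holds corepressors, and with ligand it recruits coactivators and switches on target genes, among them genes for the receptors and for the enzymes that destroy retinoic acid. Neuroblastoma cells treated with retinoic acid stop dividing and grow neurites, and a retinoid is part of the treatment of high-risk disease.

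The receptor pair binds direct repeats of a short half-site, and the form with a 5-base spacer, called DR5, is the classical retinoic acid response element. RefSeq promoter windows (GRCh38.p14, each 300 bases, of which 50 follow the start) were listed for all 10 genes and were searched on both strands. A half-site was AGGTCA, the form AGTTCA, the form GGGTCA or the form GGTTCA, and a match was 2 half-sites in the same orientation with a spacer of 5, 2 or 1 bases (DR5, DR2, DR1). DR5 matched in 1 of 4 windows of RARB and in 1 of 2 windows of CYP26A1, and in no window of the other 8 genes. Neither DR2 nor DR1 matched in any window of the 10 genes. Over all genes listed, 0.106% had a DR5 match (29 of 27305), and by window DR5 matched in 0.0883%, DR2 in 0.0399% and DR1 in 0.131% of 35116. Both elements are textbook examples through which retinoic acid induces these genes, so the 250 bases before the start are printed for them, in the direction of the gene, with the half-sites in capitals. The first is chr3:25428013-25428262 on the plus strand and the second is chr10:93073643-93073892 on the plus strand.
RARB: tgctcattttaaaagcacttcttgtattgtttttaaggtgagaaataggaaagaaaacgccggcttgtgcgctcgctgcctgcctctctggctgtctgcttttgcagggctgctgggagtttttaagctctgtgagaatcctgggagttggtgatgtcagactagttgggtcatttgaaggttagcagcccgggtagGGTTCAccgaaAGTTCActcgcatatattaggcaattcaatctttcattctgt
CYP26A1: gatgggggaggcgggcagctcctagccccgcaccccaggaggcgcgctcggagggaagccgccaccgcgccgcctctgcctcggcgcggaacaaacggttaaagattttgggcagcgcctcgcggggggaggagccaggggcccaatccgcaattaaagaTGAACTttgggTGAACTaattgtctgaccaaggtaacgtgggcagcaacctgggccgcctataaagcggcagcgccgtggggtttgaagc
In RARB the element lay 53 to 37 bases before the start. In CYP26A1 it lay 90 to 74 bases before the start on the opposite strand, where it reads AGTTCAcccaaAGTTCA, against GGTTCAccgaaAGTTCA in RARB. A match describes letters in the reference, not binding in these cells. Elements outside these windows, or with other half-sites or spacers, were not searched. The levels of both genes in the libraries are given below.

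Depth ran from 18737591 to 59512958 counts per library. Levels are CPM (reads of a gene relative to the library's total) scaled by TMM, a method that sets libraries to a common level over most genes. All 15 neuroblastoma markers checked, such as HAND2 and DBH, were at 1 CPM or more in every library. Of 8 haematopoietic markers, CD3E and HBB had no count in any library, and the list summed to between 7.02 and 9.42 CPM per library. Of 9 fibroblast and endothelial markers none was at 0 in every library, and the list summed to 110 and 109 CPM with LMO1, 102 and 109 CPM with vector, 166 CPM in Kelly and, in parental cells, 192 CPM. Within that list single genes moved in opposite directions with LMO1: the matrix genes DCN (log2 0.84) and LUM (1.06) and the endothelial gene VWF (1.68) rose, and the collagen gene COL3A1 (-1.80) and the endothelial cadherin CDH5 (-2.35) fell, with edgeR adjusted p of at most 0.00353. The part of these genes in the results below was not tested. Schwann and melanocytic markers summed to 15.9 and 16.9 CPM with LMO1, 21.3 and 21.5 CPM with vector, 34.9 CPM in Kelly and, in parental cells, 18.5 CPM. The forced gene LMO1 averaged 6.20 ± 0.489 CPM in LMO1 cells, against 0.990 ± 0.0907 CPM in vector cells (SD, n = 2 each), and Kelly had 94.1 CPM, against 1.93 CPM in parental cells. MYCN averaged 1597 ± 55.0 CPM in LMO1 cells, against 1658 ± 10.4 CPM in vector cells (edgeR adjusted p = 0.122). The parental and Kelly libraries were deeper than the modified ones, and their 10 most counted genes held 5.31% (Kelly) and 4.78% (parental) of counts, against 8.31% to 8.57% in the 4 modified libraries. The part of that difference in the ratios to parental cells below was not tested.

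**Figure D1:**
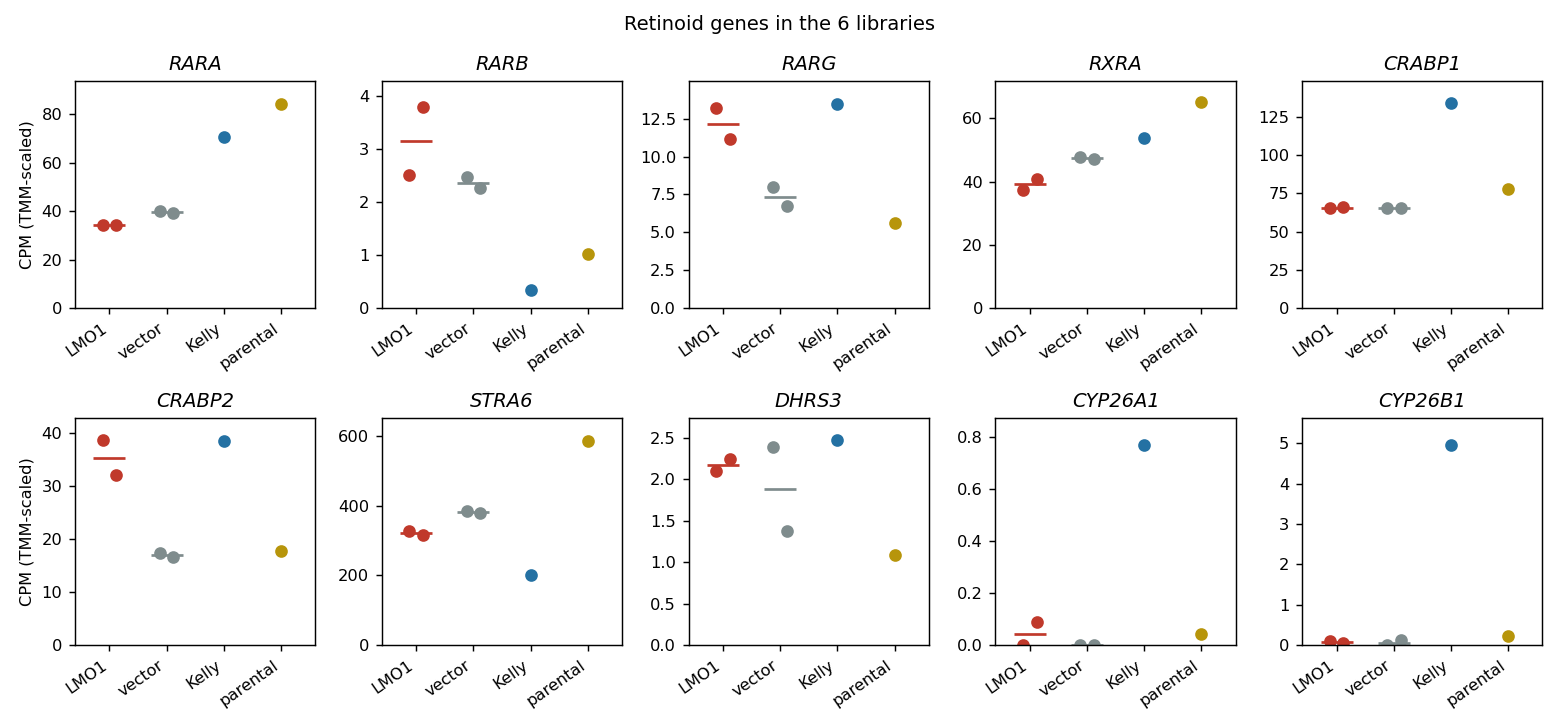
Level of each retinoid gene (CPM, TMM-scaled, linear axis from 0) in each library, by group. Points are libraries and bars are means of 2. CRABP2 and RARG are higher in both LMO1 libraries than in both vector libraries, and CYP26B1 stands at 4.97 CPM in Kelly against 0.230 CPM or less elsewhere.

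With forced LMO1, the binding protein CRABP2 and the receptor RARG rose, and the transporter STRA6 and the receptors RXRA and RARA fell by smaller amounts. Genes were compared with edgeR's quasi-likelihood test and called at a Benjamini-Hochberg adjusted p below 0.05 over all 15480 genes tested. Of the 8 retinoid genes tested, 2 were called higher and 3 lower, and 3 were not called. Among all genes tested 15.9% were called higher and 15.1% lower, 31.0% in all, so calls were common in this comparison. Overlap of the groups is given below as description only, because its share over all genes was not counted. With 2 libraries a group, genes that were not called can also lack overlap, such as the coregulator GPS2 (edgeR adjusted p = 0.809). In bulk RNA, fewer cells expressing a gene and less RNA per cell cannot be told apart. The median log2 fold change was 0.12 over the 8 genes and 0.00083 over all genes tested.

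CRABP2 carries retinoic acid to the nuclear receptors. It was at 38.5 and 32.0 CPM in the LMO1 libraries, against 17.3 and 16.7 CPM in the vector libraries. The groups did not overlap, and the lower LMO1 library was still well above both vector libraries. The fold change was 2.08 (log2 1.06, SE 0.0958, 95% interval 0.87 to 1.25, edgeR adjusted p = 1.01e-12). CRABP1, its close relative, is held to bind retinoic acid in the cytosol and to bring it to the clearing enzymes. It was at 65.6 and 65.9 CPM with LMO1, against 65.2 and 65.7 CPM with vector, and the groups overlapped. Its log2 fold change was 0.01 with a 95% interval of -0.10 to 0.13 (edgeR adjusted p = 0.896). An annotated antisense transcript absent from the count table overlaps 45.9% of CRABP1 exon bases. Set per kilobase of the longest annotated transcript, CRABP1 RNA exceeded CRABP2 RNA 2.28-fold and 2.75-fold in the LMO1 libraries, and 5.05-fold and 5.28-fold in the vector libraries.

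RARG is the receptor form known best from skin and cartilage. It was at 13.2 and 11.1 CPM with LMO1, against 7.97 and 6.76 CPM with vector, without overlap. It rose 1.66-fold (log2 0.73, SE 0.149, 95% interval 0.43 to 1.03, edgeR adjusted p = 0.000125). RARA, the most broadly expressed receptor form, was at 34.2 and 34.5 CPM with LMO1, against 40.0 and 39.3 CPM with vector. These groups did not overlap either, but the difference was small, with a log2 fold change of -0.20 (SE 0.0759, edgeR adjusted p = 0.0412). The RARA call was lost when any 1 library was left out, with edgeR adjusted p = 0.0716 and 0.0709 without LMO1 replicates 1 and 2 and 0.161 and 0.103 without vector replicates 1 and 2, and also with total-count scaling (0.0842) and with DESeq2 (0.157). The log2 fold change itself stayed between -0.21 and -0.17 under all 12 alternatives run. The antisense gene RARA-AS1 overlaps 13.4% of the annotated exon bases of RARA and was at 0.995 and 1.10 CPM with LMO1, against 1.70 and 1.17 CPM with vector. The strand setting of the counting was not given in the sources used here.

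RARB, the receptor whose promoter element is printed above, was low. It was at 2.51 and 3.79 CPM with LMO1, from 48 and 86 counts, against 2.47 and 2.25 CPM with vector, from 54 and 56 counts. The lower LMO1 library lay just above the higher vector library. The log2 fold change of 0.43 had a 95% interval of -0.12 to 0.99 (edgeR adjusted p = 0.248). RXRA, the partner of all 3 receptors, was at 37.4 and 40.8 CPM with LMO1, against 47.6 and 47.0 CPM with vector, without overlap. It fell by 0.27 on the log2 scale (SE 0.0722, edgeR adjusted p = 0.00347).

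**Figure D2:**
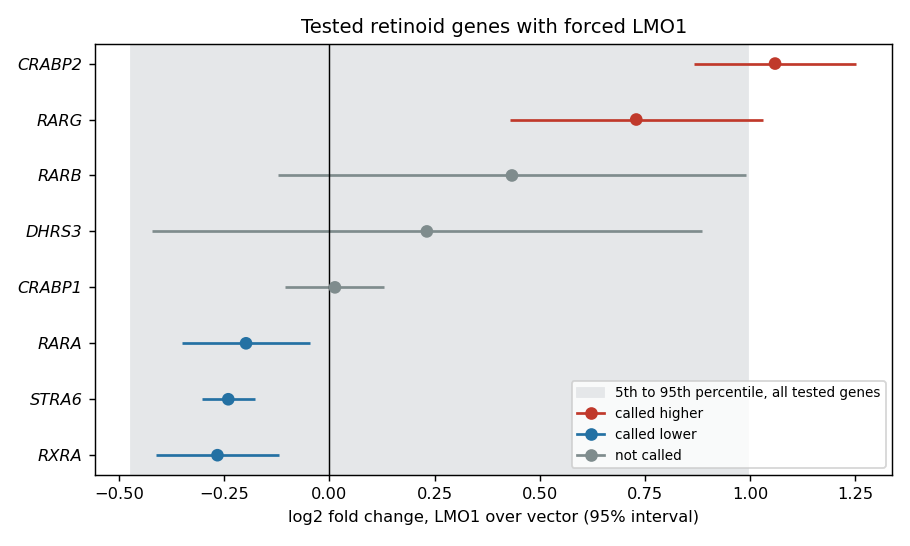
Log2 fold change of LMO1 over vector for the 8 retinoid genes tested (points, with 95% intervals from the edgeR fit), beside the 5th to 95th percentile of all tested genes (grey band). CRABP2 at 1.06 lies beyond the band, and the genes called lower lie between -0.27 and -0.20, inside it.

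Per kilobase, RARA supplied most of the receptor RNA in all 6 libraries, and RARG supplied a greater share with LMO1 than with vector. RARA made up 68.1% and 69.4% of the summed RAR level in the LMO1 libraries, against 79.0% and 81.1% in the vector libraries. RARG made up 27.0% and 23.1% with LMO1, against 16.2% and 14.3% with vector. In Kelly RARA held 83.3% and RARG 16.3%, against 92.5% and 6.37% in parental cells. RARB held 4.93% and 7.52% with LMO1, 4.82% and 4.59% with vector, 0.410% in Kelly and 1.11% in parental cells. The summed RAR level was 16.5 and 16.3 CPM per kilobase with LMO1, against 16.6 and 15.9 with vector, and 27.9 in Kelly against 30.0 in parental cells. RXRA was left out of this reckoning because its length depends on the annotation used, at 1.85 kb for the exon union of the basic set and 5.77 kb for the longest transcript.

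**Figure D3:**
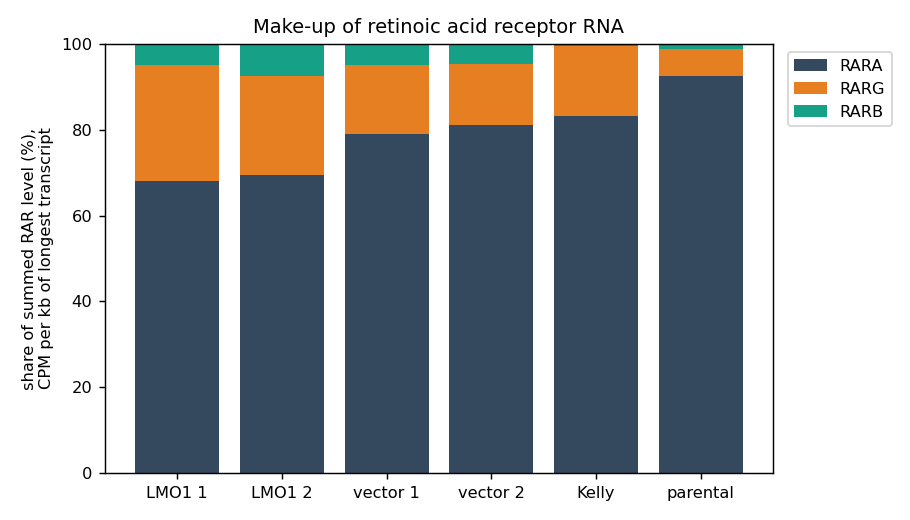
Share of RARA, RARG and RARB in the summed level of the 3 receptors (percent, from CPM per kilobase of the longest transcript) in each library. The RARG share is 27.0% and 23.1% in the LMO1 libraries, against 16.2% and 14.3% in the vector libraries.

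STRA6, the cell-surface receptor that takes up retinol from its plasma carrier, was the most counted of the 10 genes in every library. That ranking is not set per kilobase. Per kilobase of the longest transcript, CRABP1 exceeded STRA6 in Kelly (173.5 against 69.7 CPM). Per kilobase of exon union it did so in the LMO1 and vector libraries too. STRA6 was at 329 and 316 CPM with LMO1, against 386 and 380 CPM with vector. It fell by 0.24 on the log2 scale (SE 0.0312, edgeR adjusted p = 2.05e-08), a small shift between groups that did not overlap. DHRS3, which turns retinaldehyde back into retinol, was at 2.09 and 2.24 CPM with LMO1, against 2.38 and 1.37 CPM with vector, so the groups overlapped. Its log2 fold change was 0.23 with a 95% interval of -0.42 to 0.89 (edgeR adjusted p = 0.643), and it was -0.13 without vector replicate 2.

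The CYP26 enzymes, which oxidise retinoic acid and so end its action, were at or near the limit of detection in BE2C. CYP26A1 had 0 and 2 counts with LMO1, against 0 and 0 counts with vector, which allows up to 0.137 and 0.121 CPM in those vector libraries (3 counts per library). CYP26B1 had 2 and 1 counts with LMO1, against 0 and 3 counts with vector. Neither gene passed the low-count filter, and no fold is given because both groups lie at or under the floor. With no filter, edgeR gave an adjusted p of 0.605 for CYP26A1 and 0.974 for CYP26B1, and a difference within the floor would not be detectable at this depth.

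Between the lines, Kelly held more CRABP2, RARG and CYP26B1 than parental BE2C and less STRA6. Each line had a single library, so the differences have no replicate check, no p-value is given, and intervals cover counting error only. Log2 ratios were taken after adding 1 CPM, which understates the change of low genes. Of 9 retinoid genes that reached 1 CPM in Kelly or parental cells, 3 were 2-fold or more higher in Kelly and 1 was 2-fold or more lower, against 15.9% and 13.4% of all 15013 such genes. The median log2 ratio was 0.73 over the 9 genes and -0.01 over all such genes.

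CRABP2 was at 38.4 CPM in Kelly, against 17.7 CPM in parental cells, a ratio of 2.17 (95% interval 2.0 to 2.35). RARG was at 13.5 CPM in Kelly, against 5.65 CPM in parental cells, a ratio of 2.38 (2.07 to 2.75). The Kelly levels of both genes lay within or next to the range of the LMO1 libraries, and the parental levels lay nearest to the vector libraries. CRABP1 was at 134 CPM in Kelly, against 77.7 CPM in parental cells, a ratio of 1.72 (1.66 to 1.79).

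CYP26B1 was at 4.97 CPM in Kelly from 296 counts, against 0.230 CPM in parental cells from 11 counts, a ratio of 21.6 (11.9 to 43.7). CYP26A1 was at 0.772 CPM in Kelly from 46 counts, against 0.0419 CPM in parental cells from 2 counts, a ratio of 18.4 (4.82 to 157). Both clearing enzymes were thus highest in Kelly, where CYP26A1 was still under 1 CPM. DHRS3 was at 2.47 CPM in Kelly, against 1.09 CPM in parental cells, a ratio of 2.27 (1.64 to 3.17). Its log2 ratio after adding 1 CPM was 0.73, below the 2-fold line.

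STRA6 was at 201 CPM in Kelly, against 586 CPM in parental cells, a ratio of 0.344 (0.336 to 0.351). RARB was at 0.352 CPM in Kelly from 21 counts, against 1.03 CPM in parental cells from 49 counts, a ratio of 0.344 (0.196 to 0.584). After adding 1 CPM the RARB log2 ratio was -0.58, short of the 2-fold line. RARB, which like CYP26A1 carries the DR5 element, was thus lowest in the line where CYP26A1 was highest, with both under 1 CPM in that single library. The part of the element in these levels was not tested. RARA was at 70.7 CPM in Kelly, against 84.3 CPM in parental cells (ratio 0.838, 0.802 to 0.875), and RXRA at 53.9 CPM in Kelly, against 65.0 CPM in parental cells (ratio 0.829, 0.789 to 0.871).

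The choice of BE2C library changed some of these values. Unmodified and vector BE2C cells are the same line, yet of 14384 genes 2.88% were 2-fold or more higher in vector than in parental cells, and 8.11% were 2-fold or more lower. After adding 1 CPM, RARA was the only 1 of 8 retinoid genes past that line, at 39.6 ± 0.478 CPM with vector (n = 2), against 84.3 CPM in parental cells. STRA6 was at 383 ± 4.71 CPM with vector, against 586 CPM in parental cells, and RARB at 2.36 ± 0.156 CPM with vector, against 1.03 CPM in parental cells. The RARB ratio of vector to parental was 2.30, and only the added 1 CPM (log2 ratio 0.73) kept it short of 2-fold. With the vector mean in place of the parental library, the log2 ratio in Kelly was 0.82 for RARA and 0.18 for RXRA, so both turned from lower to higher. STRA6 then had -0.92 and RARG 0.79, both short of 2-fold, CRABP1 reached 1.02 and RARB -1.31, and CRABP2 (1.13) and CYP26B1 (2.49) kept their place.

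**Figure D4:**
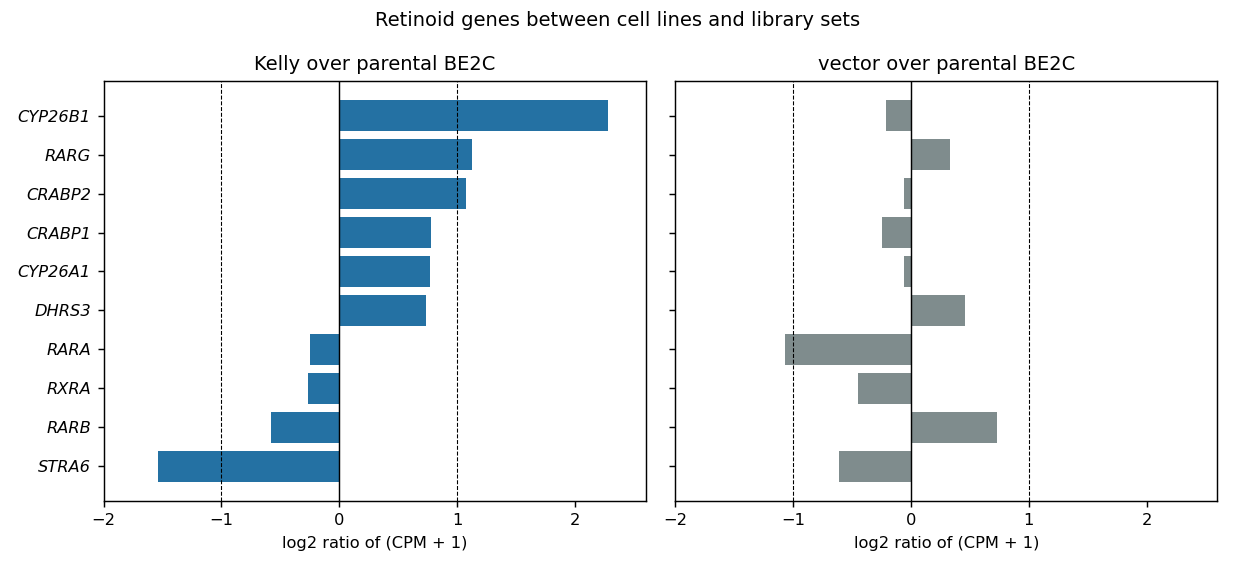
Log2 ratio of CPM with 1 added for each retinoid gene, in Kelly over parental BE2C (left) and in vector over parental BE2C (right). Bars start at 0 and dashed lines mark 2-fold. CYP26B1 (2.28), RARG and CRABP2 pass 2-fold upward and STRA6 (-1.54) downward in Kelly, and RARA (-1.07) passes it downward in vector cells.

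Over the 6 libraries STRA6 and RARA had the widest range among retinoid genes of at least 5 CPM in some library. Closest in pattern to STRA6, among 12596 other genes, were PASK, HERC2P2 and PTBP3, with root mean square differences of 0.0439, 0.0481 and 0.0604 in log2(CPM + 1) after centring each gene. Closest to RARA were EIF4EBP2, KMT2C and ANKFY1, at 0.0492, 0.0504 and 0.0509. The 6 libraries share depth and content by set, which such a likeness also follows.

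Other genes of the pathway were read from 6 lists. Of 66 tested with LMO1 against vector, 14 were higher, 13 lower and 39 not called, beside 15.9% higher and 15.1% lower of all genes, with a median log2 fold change of 0.02. Among genes that supply retinoids, ALDH1A3, a retinaldehyde dehydrogenase that makes retinoic acid, rose to 8.64 and 8.41 CPM with LMO1, against 2.29 and 4.02 CPM with vector (log2 1.42, SE 0.204, edgeR adjusted p = 2.14e-07). It was the only called gene of 13 tested for synthesis and storage, 1 higher and 0 lower. DESeq2 and limma-voom gave the same counts, and 1 gene of the list was lower at an unadjusted p below 0.05. ALDH1A3 was at 0.503 CPM in Kelly, against 3.14 CPM in parental cells. Among genes of this list with at least 5 CPM in Kelly or in parental cells, which leaves out ALDH1A3, the widest line differences were those of the dehydrogenase ADH5, at 154 CPM in Kelly against 61.6 CPM in parental cells, and the retinal reductase RDH11, at 74.4 CPM in Kelly against 128 CPM in parental cells.

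Carriers and uptake genes had 3 higher and 0 lower of 5 tested by edgeR, beside 15.9% and 15.1% of all genes. DESeq2 and limma-voom gave the same counts for the list, and 0 were lower at an unadjusted p below 0.05. The endocytic receptor LRP1 rose by 0.36 (SE 0.0594) and the scavenger receptor SCARB1 by 0.33 (SE 0.0572) on the log2 scale. LRP1 was at 688 CPM in Kelly, against 298 CPM in parental cells, and at 56.4 ± 0.0796 CPM in vector cells. Of 3 tested enzymes that can clear retinoic acid besides CYP26, edgeR, DESeq2 and limma-voom called 0, and 0 had an unadjusted p below 0.05. In Kelly, CYP3A5 was at 19.0 CPM, against 3.39 CPM in parental cells, and CYP2C8 was at 6.31 CPM, against no count in parental cells.

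**Figure D5:**
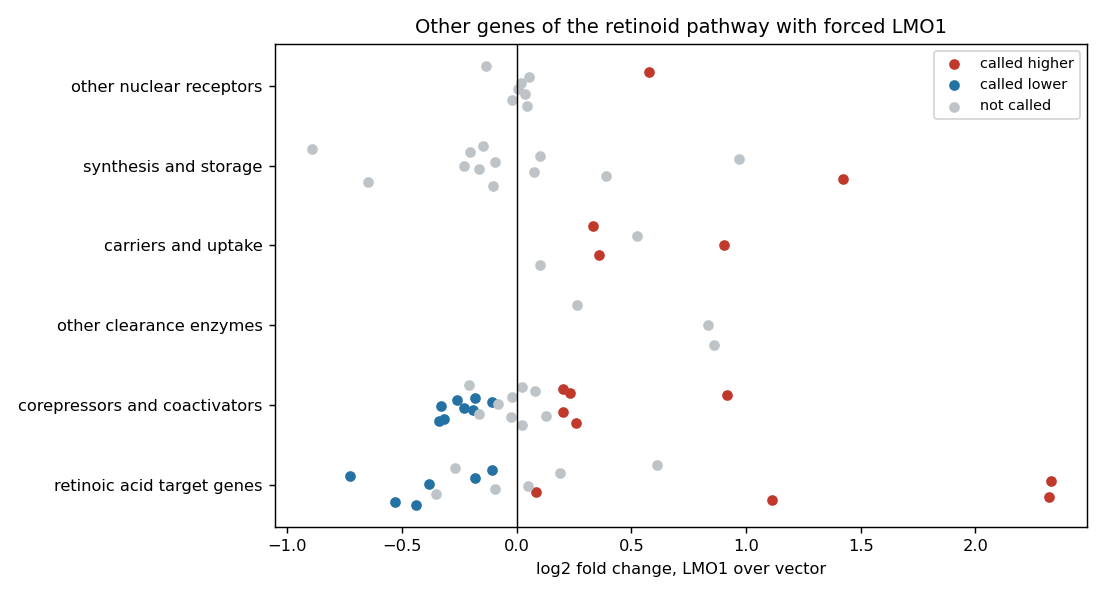
Log2 fold change of LMO1 over vector for every tested gene of the 6 other pathway lists, 1 point a gene, coloured by the edgeR call. NRIP1 stands in 2 lists. Calls lie on both sides of 0 among coregulators (5 higher, 8 lower of 22) and target genes (4 higher, 6 lower of 16). Of all genes tested, 15.9% were called higher and 15.1% lower.

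Among other nuclear receptors, 1 of 8 tested was higher and 0 lower, beside 15.9% and 15.1% of all genes by edgeR. The gene called was the orphan receptor RORA, at 32.5 and 29.4 CPM with LMO1, against 21.9 and 19.8 CPM with vector (log2 0.58, SE 0.0924, edgeR adjusted p = 2.02e-06). DESeq2 and limma-voom gave the same counts, and 0 were lower at an unadjusted p below 0.05. Among genes of this list with at least 5 CPM in Kelly or in parental cells, the widest line differences were those of NR2C2, at 261 CPM against 139 CPM in parental cells, and PPARD, at 37.9 CPM against 57.9 CPM in parental cells.

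Of 22 RAR corepressors and coactivators tested, 5 were higher and 8 lower by edgeR, and 4 higher and 6 lower by DESeq2, beside 15.9% and 15.1% of all genes by edgeR. The list had a median log2 fold change of -0.05. PRAME, a cancer-testis antigen that represses RAR signalling, was at 10.6 and 9.51 CPM with LMO1, against 4.90 and 5.72 CPM with vector (log2 0.92, SE 0.164, edgeR adjusted p = 1.46e-05). TBL1XR1, a subunit of the corepressor complex, rose by 0.20 (SE 0.031), while the coactivators NCOA2 and EP300 fell by 0.33 (SE 0.0552) and 0.31 (SE 0.0609). Of the 22 genes, 6 were at least 2-fold lower in vector than in parental cells, beside 8.11% of all genes, EP300 among them at 67.8 ± 0.207 CPM with vector, against 247 CPM in parental cells. In this list PRAME had the widest gap between the lines, at 625 CPM in Kelly, against 6.72 CPM in parental cells, a ratio of 93.0 (83.3 to 104). The acetyltransferase KAT2B was at 20.3 CPM in Kelly, against 6.70 CPM in parental cells.

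The list of retinoic acid target genes held 16 tested genes, of which 4 were higher and 6 lower by edgeR, and 2 higher and 6 lower by DESeq2, beside 15.9% and 15.1% of all genes by edgeR. The list had a median log2 fold change of -0.10. NEDD9, an adhesion docking protein, was at 34.4 and 31.4 CPM with LMO1, against 6.55 and 6.60 CPM with vector (log2 2.33, SE 0.115, edgeR adjusted p = 5.94e-22). It was at 68.6 CPM in Kelly, against 18.4 CPM in parental cells, which lay above both vector libraries. DUSP6, a phosphatase of ERK kinases, was at 8.69 and 7.26 CPM with LMO1, against 4.03 and 3.38 CPM with vector (log2 1.11, SE 0.192, edgeR adjusted p = 8.47e-06). In Kelly, NTRK2, the TrkB neurotrophin receptor, was at 5.97 CPM, against 0.0419 CPM in parental cells from 2 counts, a ratio of 143 (39.2 to 1183). Of 17 target genes that reached 1 CPM in Kelly or parental cells, 8 were higher by 2-fold or more in Kelly and 3 were lower by as much, beside 15.9% and 13.4% of all genes so measured.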

How the data were processed

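RNA of 6 neuroblastoma libraries was purified on columns and prepared with a stranded total RNA kit, per the labels' protocols. The authors deposited raw counts of reads per gene symbol, not normalized. The submitters' processing notes list hg19, HTSeq and TopHat2 2.0.6. The annotation, strand setting and filters are not given in the sources used here. The members and lists were chosen with earlier results of these data known. Counts were compared with edgeR 4.0.16 (R 4.3.3): TMM scaling, filterByExpr, quasi-likelihood F test, Benjamini-Hochberg adjustment over 15480 genes. Alternatives used DESeq2 1.42.0, limma 3.58.1, other scalings and filters, all 6 libraries, a replicate block and leaving out each library. Within groups, counts varied beyond sampling noise, at a chi-square of 2.84 (LMO1) and 2.70 (vector) per degree of freedom. On data simulated for LMO1 against vector (15292 genes), the test found 53 of 67 true 1.5-fold changes, 49 of 67 at 2-fold and 64 of 66 at 4-fold, and made 7 false calls. Far fewer genes were changed there than the 31.0% called in the real comparison, so these rates need not hold for it. Lengths and exon overlaps came from GENCODE 29. Counts of 0 allow up to 3 counts. Intervals of Kelly against parental cells are exact (95%) and cover counting error only. Those of LMO1 over vector (95%) come from the edgeR fit. Named genes were the 10 members, LMO1 and MYCN, up to 4 called genes of each list by adjusted p, in Kelly up to 2 per list by log2 ratio at 5 CPM or more, and the nearest patterns of 2 members. Some genes that this rule picks are not reported here. Other genes named were chosen after their values were seen.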

Additional observations from a re-analysis of the deposited data

How the results depend on the processing

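For LMO1 against vector, the 2 higher and 2 of the 3 lower retinoid genes kept their calls under all 12 alternatives run, and RARA did not, as given above. Leaving out 1 library gave 2 higher and 2 lower calls each time. Over all alternatives the log2 fold change ran from 0.92 to 1.19 for CRABP2, 0.60 to 0.85 for RARG, -0.33 to -0.21 for RXRA and -0.27 to -0.21 for STRA6, with the highest adjusted p at 4.74e-07, 0.017, 0.0473 and 9.45e-06. DHRS3, not called, reversed to -0.13 without vector replicate 2 and was 0.67 without vector replicate 1, and RARB ran from 0.10 to 0.68. Calls over all genes numbered 2463 higher and 2334 lower by edgeR, against 1539 and 1431 by DESeq2, 2735 and 1853 with total-count scaling (59.6% of calls higher, against 51.3%), and 1772 to 1914 higher and 1670 to 1745 lower with 1 library left out. Other pathway genes gave 11 to 14 higher and 9 to 13 lower calls, and with 1 library left out 11 to 12 higher and 9 to 13 lower. Target genes called higher numbered 4 by edgeR and 2 by DESeq2. Same-numbered libraries did not deviate together over the genes tested (correlation -0.02), so the values gave no sign of pairing by number. With 2 libraries a group, this cannot settle whether the samples were paired. With the replicate block 2 retinoid genes were higher and 3 lower, as without it, with CRABP2 at 1.06. With a pseudocount of 0.1, 4 retinoid genes in place of 3 were at least 2-fold higher in Kelly (DHRS3 at 1.11 joined), 2 retinoid genes in place of 1 were at least 2-fold lower in Kelly (RARB at -1.31 joined STRA6) and 1 in place of 0 was 2-fold higher in vector than in parental cells (RARB at 1.13). Leaving out either vector library gave 0 higher and 1 lower in that comparison. With the exon union as length, RARA made up 64.0% and 65.2% of receptor RNA with LMO1, against 75.6% and 77.9% with vector. The comparisons with Kelly and with parental cells rest on single libraries, and below about 3 CPM counting error limits RARB, DHRS3 and the CYP26 genes.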

Other observations

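Some pathway genes that were too low to test in BE2C were present in Kelly (chosen after their values were seen). RORB, an orphan receptor of neurons, was at 3.83 CPM in Kelly from 228 counts, against 0.0837 CPM in parental cells from 4 counts. SOX9, a factor of neural crest and glia, was tested but not called with LMO1, and was at 21.8 CPM in Kelly, against 2.99 CPM in parental cells. RXRG, the RXR form of muscle and brain, had 33 counts in Kelly, against 1 count in parental cells, and RARRES2, which encodes chemerin, had 87 counts in Kelly, against 2 counts in parental cells. LPL, a lipase that helps cells take up retinyl esters, had 148 counts in Kelly, against 0 counts in all 5 BE2C libraries, and a count of 0 allows up to 0.157 CPM in the smallest of these.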
